A study of Mus musculus with 12 samples.

Results

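Oxidative phosphorylation genes of the nucleus were followed in mouse bone marrow-derived macrophages (BMDMs) given IL-4, LPS or both. The genes were taken by symbol: every row whose name began with Nduf and a subunit letter and number, with Uqcr, with Cox4 to Cox8 or with Atp5, together with Sdha, Sdhb, Sdhc and Sdhd. This gave 84 of the 23847 rows in each table. By name, 35 were counted with complex I, 4 with complex II, 8 with complex III, 20 with complex IV and 15 with complex V. These are called subunit genes below. Atp5s and Atp5sl carry the Atp5 prefix but are not among the ATP synthase subunits. Ndufa4 and Ndufa4l2, named for complex I, were counted with complex IV, where the protein is now placed. Subunits encoded by the mitochondrial genome do not match these names and were not analysed here.

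The BMDMs came from wild-type C57BL/6 mice of 8 to 12 weeks, and were grown from marrow for 6 days with M-CSF from L929 cell supernatant. Control cells received neither agent, IL-4 cells received IL-4 at 20 ng/ml for 24 h, LPS cells received LPS at 100 ng/ml for 3 h, and IL-4+LPS cells received IL-4 for 24 h and then LPS for 3 h. The LPS unit is that of the labels, and the study's methods give nM. Each group held 3 samples, 12 in all. The samples came from 3 animals over 2 experiments, and no source used here ties a sample to its animal, so p-values measure the spread between these samples. Alternative polarization of macrophages is driven by the cytokine IL-4, and an inflammatory response by LPS, a component of bacterial walls. The design asks how earlier IL-4 changes what LPS does.

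In the respiratory chain, complexes I and II pass electrons from NADH and succinate to ubiquinone, complex III passes them to cytochrome c, and complex IV passes them to oxygen. Complexes I, III and IV pump protons across the inner mitochondrial membrane, and complex V, the ATP synthase, uses the return flow to make ATP. In macrophages, alternative polarization is known to go with oxidative metabolism, and an inflammatory response with glycolysis.

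Levels are given in FPKM, which are fragment numbers divided by transcript length and by each sample's mapped total and can be compared between genes because they are per length. FPKM totals lay between 457583 and 495025 per sample. Absolute depth was unknown, and the relative depth read from the steps between low values ran from 0.991 to 3.30, with control replicate 1 set to 1. The 7 macrophage markers summed to between 19950 and 21250 FPKM in control, 8214 and 8440 in IL-4, 15990 and 17180 in LPS, and 6920 and 7330 in IL-4+LPS. Such a sum is weighted to the most abundant genes, and the list includes Lyz2, which the study reports as repressed by IL-4. The median IL-4 minus control difference over the 7 genes was -0.53 in log2(FPKM + 1). The lymphocyte, fibroblast and erythroid markers each stayed under 1 FPKM in every sample, and the summed markers of dendritic cells and of mast cells and basophils did not pass 3.51 and 3.28 FPKM. IL-4 response genes summed to at most 208 FPKM in control and at least 12080 in IL-4, and LPS response genes to at most 34.5 FPKM in control and at least 7764 in LPS, as the labels have it. The 6 markers of neutrophil and granulocyte precursors, none of them at 0, summed to between 77.8 and 170 FPKM in control, 29.1 and 78.0 in IL-4, 85.6 and 207 in LPS, and 63.0 and 146 in IL-4+LPS. In bulk RNA, fewer cells of a type and less RNA per cell cannot be told apart. Replicate 1 was the lowest sample of its group for 61 of the 79 tested members in control, 55 in LPS, 43 in IL-4 and 63 after both. The part of these marker and replicate differences in the results below was not tested.

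In control cells the 82 subunit genes together made up 1.87% of all FPKM. The highest mean was that of Cox4i1, a subunit of complex IV, at 492 FPKM, and the highest of complex V was that of Atp5e, at 389 FPKM. The median over complex I was 55.0 FPKM, and the lowest member was Ndufa11, at 8.61 FPKM. At the other end stood the isoforms known from other tissues. Cox7b2, Cox8b, Cox8c and Ndufa4l2 were listed at 0 in all 12 samples, and Cox4i2 did not pass 0.318 FPKM. These 5 genes did not reach 1 FPKM in any sample and were not tested, which left 79 members, 77 of them subunits.

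IL-4 alone was followed by higher transcript levels in every complex. A difference was called where the adjusted p from limma on log2(FPKM + 1), corrected by Benjamini-Hochberg over 11191 rows, was below 0.05. Of the 79 members, 55 were higher in IL-4 than in control and 2 were lower, where 16.0% of all rows tested were called higher and 21.0% lower. The median difference over the members was 0.46 on the log2 scale, beside -0.05 over all rows. For 61 of the 79 members all 3 IL-4 samples lay above all 3 control samples, which held for 22.1% of all rows.

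In complex V, 14 of the 15 genes were called higher, with a median difference of 0.57. Atp5g3, Atp5g1 and Atp5g2 each encode the same c subunit, which forms the rotating membrane ring of the ATP synthase. Atp5g3 (chr2:73908450-73911294, minus strand, mm10) measured 183, 287 and 270 FPKM in control replicates 1 to 3 and 399, 510 and 510 FPKM in IL-4 replicates 1 to 3. The lowest IL-4 sample stood above the highest control sample. The difference was 0.96 ± 0.20 (SE, n = 3 a group) on the log2 scale, with an adjusted p from limma of 0.00344.

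Atp5b, the catalytic beta subunit, measured 242, 316 and 323 FPKM in control and 432, 567 and 558 FPKM in IL-4. The groups did not overlap, and the difference was 0.82 ± 0.17 (limma adjusted p = 0.00324). The alpha subunit Atp5a1 rose by 0.67 ± 0.10 (adjusted p = 0.000382) and the gamma subunit Atp5c1, the central shaft, by 0.32 ± 0.06 (adjusted p = 0.00137). The 1 member of complex V that did not pass the test was Atp5g2, with 58.7, 79.2 and 80.9 FPKM in control against 69.5, 86.7 and 81.4 FPKM in IL-4. Atp5g1 passed narrowly (0.78 ± 0.28, adjusted p = 0.0499) and lost its call without any of 8 of the 12 samples, with 0.53 without control replicate 1.

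Of the 3 genes for the c subunit, Atp5g3 and Atp5g1 were thus called higher and Atp5g2 was not. The ratio of Atp5g3 to Atp5g2 within a sample, which no scaling between samples touches, was 3.35 ± 0.26 (SD, n = 3) in control and 5.96 ± 0.28 in IL-4. It was 4.79 ± 0.24 in LPS and 7.10 ± 0.32 in IL-4+LPS. The ratio of Atp5g1 to Atp5g2 was 0.402 ± 0.055 in control and 0.641 ± 0.087 in IL-4. With LPS it was 0.444 ± 0.052 alone and 0.723 ± 0.095 after IL-4. IL-4 labels were exchanged within the samples without LPS and within those with LPS, in an exact two-sided permutation test of 400 regroupings, chosen after the values were seen. Both ratios gave the smallest p it allows, 0.005, and 0.00833 after Benjamini-Hochberg adjustment over 5 isoform pairs. Both share Atp5g2 and so are not separate results, and a test chosen after the values were seen adds no support to them. Atp5g3 supplied 70.5% of the summed FPKM of the 3 genes in control and 78.4% in IL-4. Atp5g2 supplied 21.1% and 13.2%, and Atp5g1 8.43% and 8.41%. Of the 50-base words of their longest transcripts, 14.8% for Atp5g2 and 10.6% for Atp5g1 also occur in another gene, and none for Atp5g3.

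All 8 genes of complex III were called higher after IL-4, with a median difference of 0.57. Uqcr10, a small subunit (chr11:4701968-4704344, minus strand), measured 131, 182 and 172 FPKM in control and 269, 290 and 258 FPKM in IL-4. The groups did not overlap, and the difference was 0.76 ± 0.13 (limma adjusted p = 0.00103). Uqcrfs1, the Rieske iron-sulfur protein that carries electrons inside the complex, measured 52.4, 53.2 and 55.2 FPKM in control and 80.4, 81.5 and 82.0 FPKM in IL-4. The groups did not overlap, and the difference was 0.59 ± 0.06 (adjusted p = 2.89e-05). The core proteins Uqcrc1 and Uqcrc2 rose by 0.56 ± 0.13 and 0.30 ± 0.05 (adjusted p = 0.0069 and 0.00163).

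Complex IV held the sharpest contrast between members. Of its 15 tested genes 9 were called higher and 1 lower after IL-4, with a median of 0.49. Cox7b (chrX:106015700-106022450, plus strand), a small subunit of the complex, measured 58.2, 56.2 and 60.9 FPKM in control and 111, 105 and 110 FPKM in IL-4. The 2 groups were each tight and lay 1.86-fold apart, with a difference of 0.89 ± 0.06 (limma adjusted p = 1.94e-06). Cox8a rose by 0.74 ± 0.13 (adjusted p = 0.00143), and the subunits Cox5a and Cox5b rose by 0.60 ± 0.07 and 0.70 ± 0.11 (adjusted p = 6.85e-05 and 0.000587). Part of the Cox5b transcript, 25.9% of its 50-base words, is shared with other genes, so its value is less certain. Cox4i1, the most abundant member, gave 0.19 ± 0.09 and did not pass the test (adjusted p = 0.135).

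The member that fell was Cox7a2l (chr17:83501917-83514333, minus strand), a relative of Cox7a2 that was counted with complex IV by its name. It measured 177, 154 and 146 FPKM in control and 118, 100 and 105 FPKM in IL-4, so all IL-4 samples lay below all control samples. The difference was -0.56 ± 0.12 (limma adjusted p = 0.0038). Its relative Cox7a2 moved the other way, with 88.2, 114 and 114 FPKM in control, 158, 151 and 146 FPKM in IL-4, and a difference of 0.53 ± 0.12 (adjusted p = 0.00608). The ratio of Cox7a2l to Cox7a2 was 1.54 ± 0.398 (SD, n = 3) in control and 0.71 ± 0.042 in IL-4. It was 1.07 ± 0.234 in LPS and 0.599 ± 0.134 in IL-4+LPS. In the same exact two-sided permutation test, also chosen after the values were seen, its p was 0.005, the smallest possible, and 0.00833 after adjustment. Of the 50-base words of Cox7a2l, 17.7% are shared with another gene.

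Isoforms of complex IV known from muscle were rare here and gave wide errors. Cox7a1 measured 8.70, 9.12 and 9.08 FPKM in control and 7.73, 14.9 and 11.7 FPKM in IL-4, with a difference of 0.28 ± 0.46. Cox6a2 lay between 0.509 and 3.50 FPKM over the 12 samples. The ratio of neither to its common relative passed the exact permutation test (Cox7a1 over Cox7a2, two-sided p = 0.865; Cox6a2 over Cox6a1, p = 0.56). Cox6b2, a testis isoform, did not exceed 1.68 FPKM.

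In complex I, 21 of the 35 genes were called higher after IL-4, none was called lower, and the median was 0.39. Ndufb6, an accessory subunit of the membrane arm, measured 42.3, 57.3 and 65.3 FPKM in control and 103, 93.3 and 103 FPKM in IL-4. Its groups did not overlap, and its difference of 0.87 ± 0.18 (limma adjusted p = 0.00411) was the largest of the complex. Ndufc1 followed at 0.74 ± 0.22 (adjusted p = 0.0237), a call that was lost without control replicate 1 (0.57), IL-4 replicate 2 (0.76) or IL-4 replicate 3 (0.68). Among the core subunits that carry the electron path, Ndufs1 measured 25.6, 25.4 and 26.1 FPKM in control and 37.1, 35.8 and 37.7 FPKM in IL-4, a difference of 0.51 ± 0.06 (adjusted p = 0.000119). Ndufv2, Ndufs7 and Ndufs8 rose by 0.53, 0.52 and 0.55 (adjusted p = 0.000194, 0.00837 and 0.0125). Ndufs3 was called at 0.44 with 35.8% of its words shared with other genes, and lost its call when either of control replicates 1 and 3 (0.36 and 0.43) or of IL-4 replicates 2 and 3 (0.35 and 0.36) was left out. Ndufv1, which binds NADH, did not pass the test (adjusted p = 0.132).

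For other members of complex I the control and IL-4 samples overlapped. Ndufa6 measured 159, 128 and 135 FPKM in control and 138, 138 and 140 FPKM in IL-4, and Ndufb11 measured 65.7, 72.8 and 71.8 FPKM against 68.2, 67.0 and 72.8 FPKM. Their differences were -0.01 ± 0.13 and -0.02 ± 0.07 (limma adjusted p = 0.968 for Ndufa6). In complex II, which is also the succinate dehydrogenase of the citric acid cycle, the flavoprotein Sdha rose by 0.46 ± 0.06, the iron-sulfur subunit Sdhb by 0.31 ± 0.05 and the membrane anchor Sdhd by 0.52 ± 0.05 (adjusted p = 0.000322, 0.000837 and 2.32e-05). The other anchor, Sdhc, gave 0.35 ± 0.15 and did not pass the test (adjusted p = 0.0985).

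**Figure D1:**
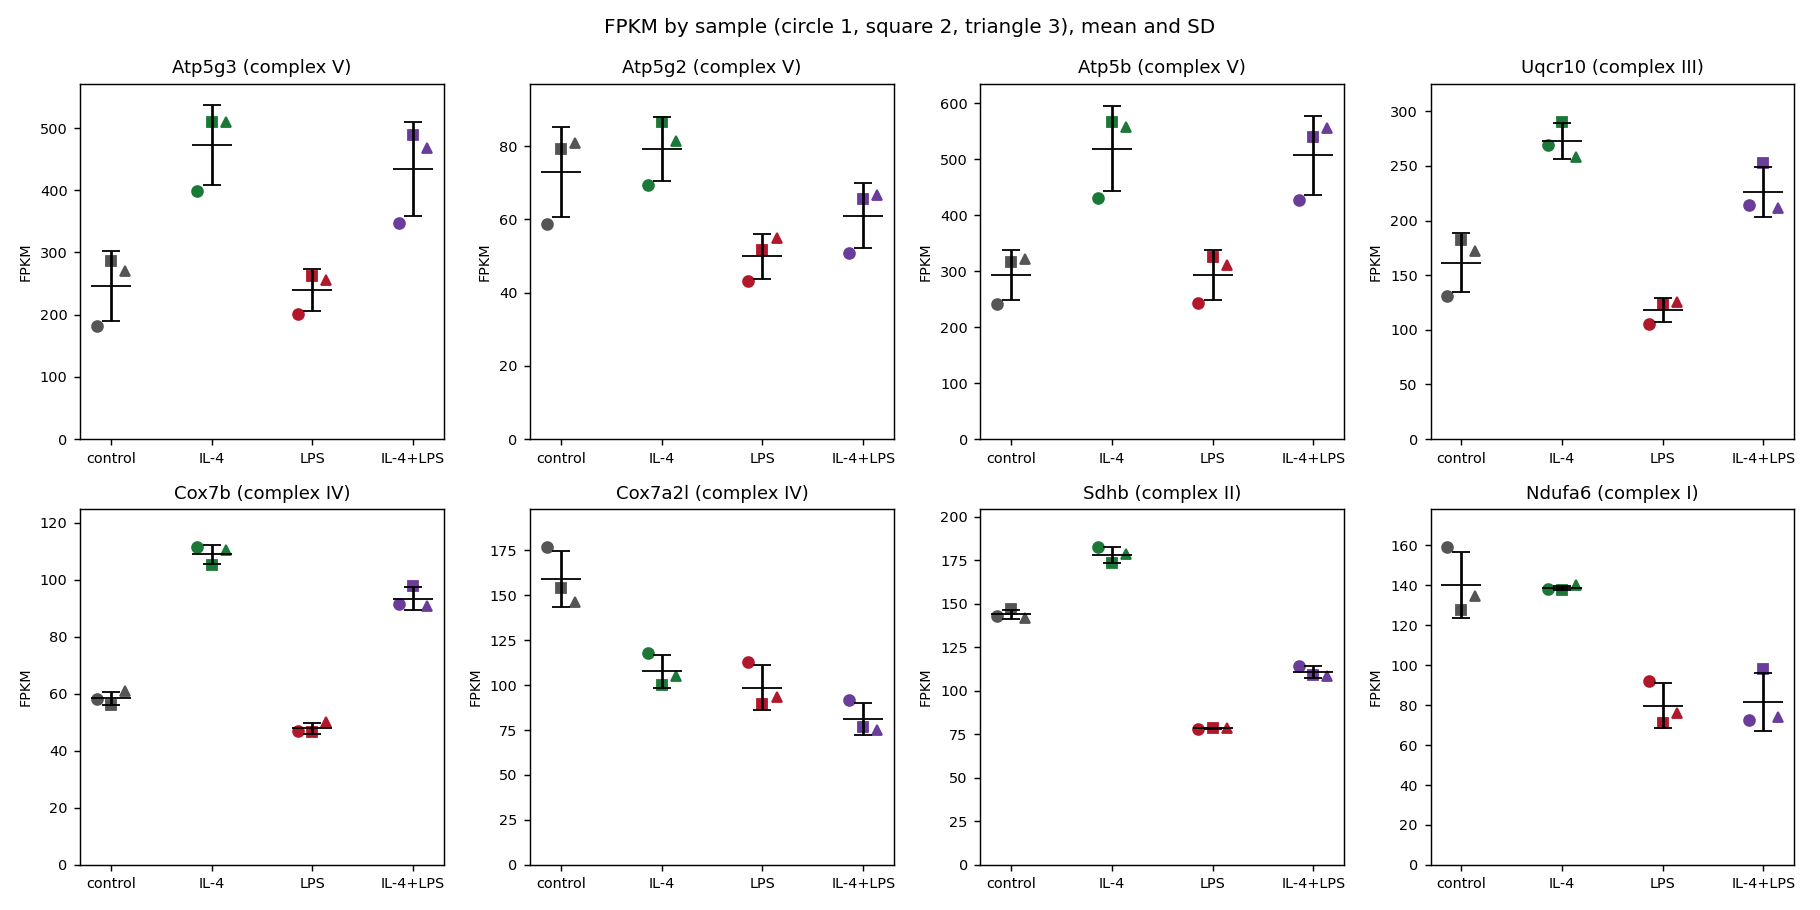
FPKM of 8 members in each of the 12 samples, by group on the x axis. Circles, squares and triangles are replicates 1, 2 and 3, and bars give the mean and SD of 3 samples. Atp5g3, Atp5b, Uqcr10 and Cox7b are high in both groups that received IL-4, Atp5g2 and Ndufa6 were not called with IL-4, Cox7a2l is lower in IL-4 than in control, and Sdhb falls from 144 FPKM in control to 78.5 FPKM in LPS.

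Cells that went on to LPS after IL-4 kept higher levels than cells given LPS alone. In IL-4+LPS minus LPS, 64 of the 79 members were called higher and none lower, where 15% of all rows were called higher and 15.8% lower. The median difference was 0.56, beside -0.03 over all rows, and 67 members had all IL-4+LPS samples above all LPS samples, against 20.4% of rows. With the neutrophil and granulocyte precursor list, none of 6 tested genes was called in this comparison, and 2 were called lower in IL-4 minus control. These 2 comparisons share no sample. All 55 members called higher in the first were called higher in the second, 9 were called higher in the second alone, and 15 in neither. Across the 79 members the 2 sets of differences had a Pearson r of 0.748, given as a description over genes that share libraries and are not replicates.

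By complex, 26 of 35 genes of complex I were higher in IL-4+LPS than in LPS, as were 4 of 4 of complex II, 8 of 8 of complex III, 12 of 15 of complex IV and 14 of 15 of complex V. Cox7b measured 47.0, 46.6 and 49.9 FPKM in LPS and 91.4, 97.9 and 90.7 FPKM in IL-4+LPS, a difference of 0.95 ± 0.06 (limma adjusted p = 1.38e-06). Uqcr10 measured 105, 123 and 125 FPKM in LPS and 214, 253 and 212 FPKM in IL-4+LPS, with a difference of 0.93 ± 0.13 (adjusted p = 0.000307). Atp5b measured 243, 326 and 312 FPKM in LPS and 427, 541 and 555 FPKM in IL-4+LPS, with a difference of 0.79 ± 0.17 (adjusted p = 0.00461). None of these groups overlapped.

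Sdhc and Ndufv1, which did not pass the test without LPS, were called higher with it, at 0.51 ± 0.15 and 0.59 ± 0.14 (limma adjusted p = 0.0279 and 0.00944). The call of Sdhc was lost without LPS replicate 1 (0.40), IL-4+LPS replicate 2 (0.48) or IL-4+LPS replicate 3 (0.46). Cox4i1 rose by 0.38 ± 0.09 (adjusted p = 0.0109). The muscle isoform Cox6a2 measured 0.885, 0.629 and 0.509 FPKM in LPS and 3.50, 2.30 and 1.76 FPKM in IL-4+LPS. This was a called difference of 1.05 ± 0.25 (adjusted p = 0.0101) at very low levels. Exons of Cox6a2 overlap those of another gene, Itgad, and which gene the fragments came from was not tested. Cox7a2l was lower in IL-4+LPS, with 91.6, 76.9 and 75.1 FPKM against 113, 89.3 and 93.3 FPKM in LPS, but the groups overlapped and the difference of -0.27 ± 0.12 did not pass the test (adjusted p = 0.101).

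**Figure D2:**
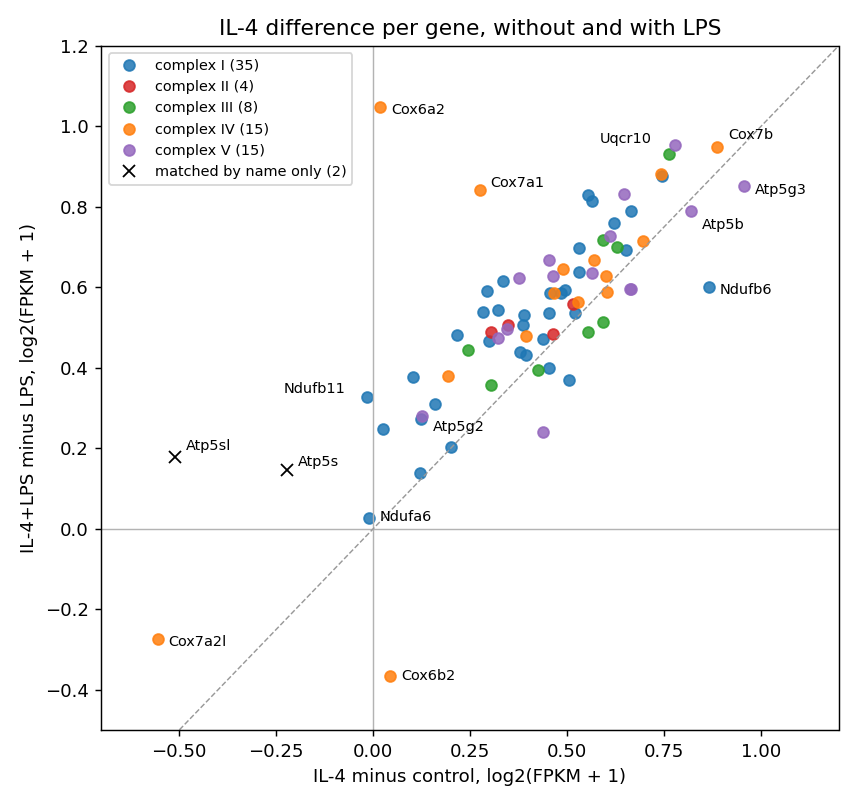
Each point is a member, with the difference IL-4 minus control on the x axis and IL-4+LPS minus LPS on the y axis, both in log2(FPKM + 1), coloured by complex. The dashed line marks equal differences. Most points lie above 0 on both axes, with medians of 0.46 and 0.56. Cox7a2l lies below 0 on both, and Atp5sl, Atp5s and Ndufa6 lie near or below 0 on the x axis.

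The values summed over each complex were higher with IL-4 in all 5 complexes. Complex V summed to 1960, 2433 and 2345 FPKM in control and to 3250, 3598 and 3535 FPKM in IL-4. In LPS it summed to 1718, 2010 and 1983 FPKM, and in IL-4+LPS to 2665, 3354 and 3211 FPKM. The IL-4 sum over the control sum, as a ratio of means, was 1.54 for complex V, 1.43 for complex III, 1.37 for complex IV, 1.32 for complex II and 1.28 for complex I. With LPS in both groups the ratios were 1.62, 1.53, 1.50, 1.43 and 1.41 in that order. In each of these 10 comparisons every sample with IL-4 stood above every sample without it. Sums are weighted to the most abundant genes and carry no test.

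Some ratios between complexes differed between groups and others did not. The summed FPKM of complex V over that of complex I, a ratio within a sample, was 0.845, 0.873 and 0.835 in control replicates 1 to 3. It was 1.01, 1.04 and 1.04 in IL-4, 1.01, 1.04 and 1.03 in LPS, and 1.15, 1.17 and 1.22 in IL-4+LPS. Both single treatments lay above control without overlap, and IL-4+LPS lay above both. Without the most abundant gene of each complex (Atp5e and Ndufa3) the ratio ran from 0.757 to 0.791 in control, 0.908 to 0.958 in IL-4, 0.949 to 0.956 in LPS and 1.05 to 1.13 in IL-4+LPS. Complex II over complex V ran the other way, from 0.181 to 0.206 in control, 0.160 to 0.166 in IL-4, 0.141 to 0.159 in LPS and 0.118 to 0.150 in IL-4+LPS. Complex II over complex I overlapped between most groups, with 0.155 to 0.174 in control, 0.166 to 0.168 in IL-4, 0.146 to 0.161 in LPS and 0.138 to 0.172 in IL-4+LPS.

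**Figure D3:**
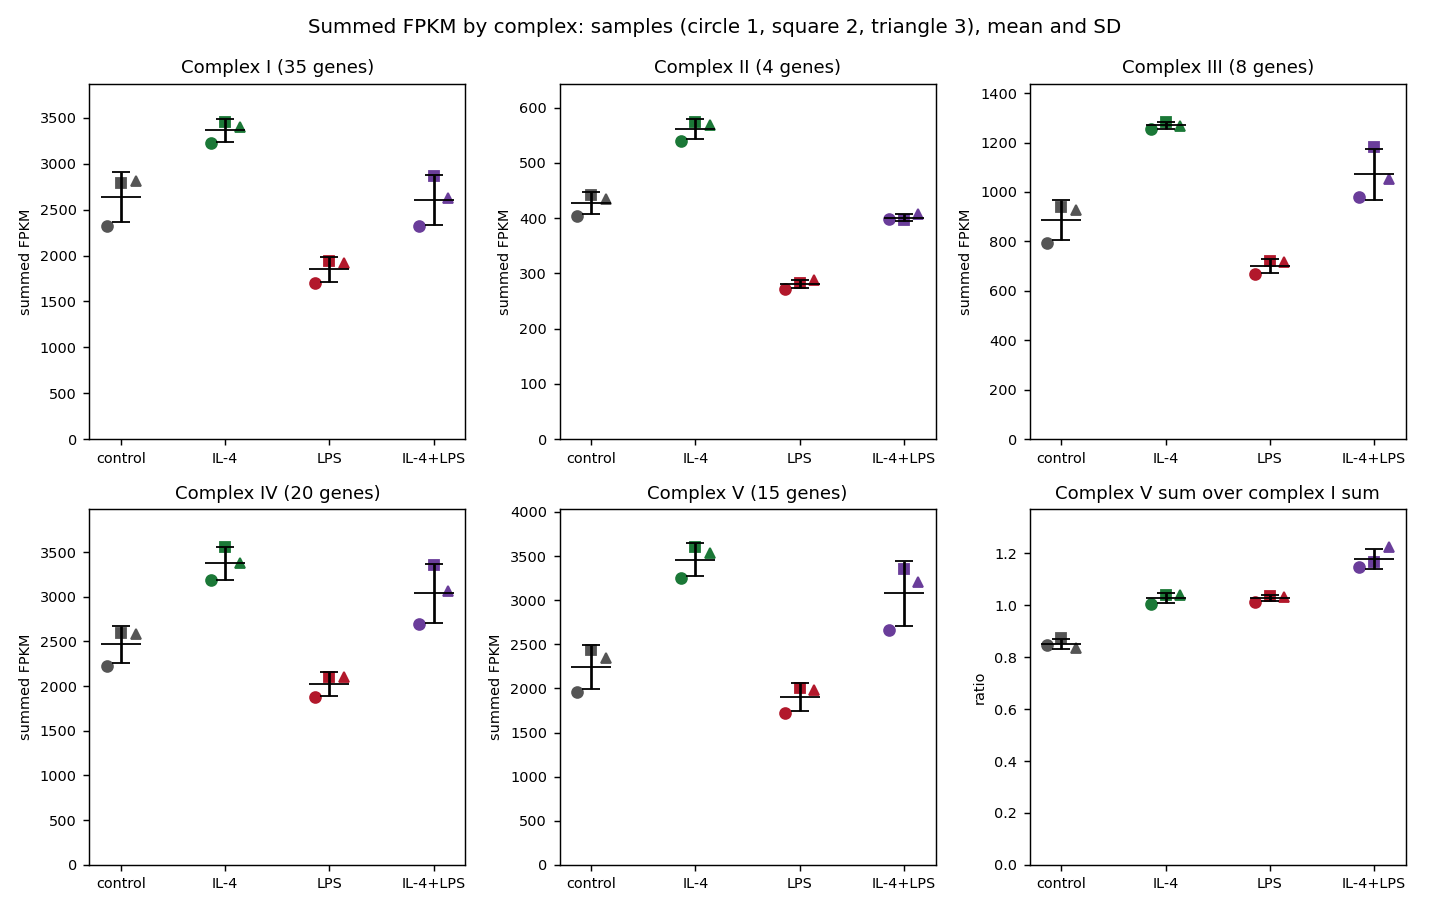
Summed FPKM of the genes of complexes I to V in each sample, by group, and in the last panel the complex V sum over the complex I sum. Circles, squares and triangles are replicates 1, 2 and 3, and bars give mean and SD of 3 samples. The mean is highest in IL-4 for each complex, though IL-4 and IL-4+LPS samples overlap for complexes IV and V, and the last panel climbs from a mean of 0.851 in control to 1.18 in IL-4+LPS.

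LPS alone lowered the FPKM of most rows in the tables, with a median difference of -0.44 over all rows, so that changes of members are read against this value. Of the 79 members 53 were called lower in LPS than in control and none higher, where 57.7% of all rows were called lower and 16.9% higher. Their median of -0.43 was that of the table. Scaled to the median of the rows expressed in all samples, the table's median moved to -0.14 and the members' to -0.06, and 13 members were lower and 4 higher, where 39.8% of rows were lower and 26.5% higher. With quantile normalization 65 were lower and none higher, where 38.7% of rows were lower and 25.9% higher, and the medians were -0.47 over the members and -0.12 over all rows. Whether the members as a group lay at, above or below the table thus depended on the scaling.

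Of the called subunit genes, those lowest against the table were Sdhb of complex II and Ndufa6, Ndufs8 and Ndufa8 of complex I. In complex II all 4 genes were called lower. Sdhb, which hands electrons from succinate onward through its iron-sulfur clusters, measured 143, 147 and 142 FPKM in control and 78.2, 78.7 and 78.5 FPKM in LPS. The groups were tight and far apart, and the difference of -0.87 ± 0.05 (limma adjusted p = 1.2e-07) lay 0.42 below the median of all rows. It was also called lower under median scaling, at -0.50. Sdhd gave -0.56 ± 0.05 (adjusted p = 2.43e-06), and -0.19 under median scaling, still called. Sdha and Sdhc, at -0.44 and -0.43, were at the level of the table, and the call of Sdhc was lost without control replicate 2 or 3 or LPS replicate 1, with values down to -0.33.

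In complex I, 29 of 35 genes were called lower, with a median of -0.50. Ndufa6 measured 159, 128 and 135 FPKM in control and 92.3, 70.9 and 75.9 FPKM in LPS, a difference of -0.81 ± 0.13 (limma adjusted p = 0.000252) that lay 0.37 below the table. Ndufs8, a core subunit with iron-sulfur clusters, measured 45.5, 63.3 and 60.7 FPKM in control and 27.9, 39.9 and 33.1 FPKM in LPS, with a difference of -0.73 ± 0.14 (adjusted p = 0.000848). Under median scaling 7 genes of the complex stayed called lower, Ndufa6 (-0.44), Ndufs8 (-0.37), Ndufa8 (-0.36), Ndufb11 (-0.32), Ndufs7 (-0.30), Ndufb8 (-0.25) and Ndufb9 (-0.20), and none was higher. At the other end of the complex Ndufb6 gave -0.15 ± 0.18 and did not pass the test.

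In complexes III, IV and V the medians were -0.34, -0.28 and -0.33, above that of the table, but -0.46, -0.39 and -0.47 under quantile normalization, below the table's -0.12. Without scaling 5 of 8, 6 of 15 and 7 of 15 genes were called lower, and under quantile normalization 7, 12 and 12. Several members of these complexes did not pass the test. Uqcrfs1 measured 53.2, 52.5 and 54.4 FPKM in LPS, against 52.4, 53.2 and 55.2 FPKM in control. Cox5a measured 154, 155 and 178 FPKM against 168, 172 and 167 FPKM. Atp5b measured 243, 326 and 312 FPKM against 242, 316 and 323 FPKM, and Atp5g3 measured 201, 262 and 255 FPKM against 183, 287 and 270 FPKM. Each of these 4 pairs of groups overlapped, and the differences were -0.01 ± 0.06, -0.06 ± 0.07, -0.001 ± 0.17 and -0.02 ± 0.20. Under median scaling Uqcrfs1 (0.36), Cox5a (0.31), Atp5a1 (0.29) and Atp5f1 (0.21) were called higher, so the direction given for them depends on the scaling.

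Cox7a2l fell with LPS also, to 113, 89.3 and 93.3 FPKM, a difference of -0.69 ± 0.12 (limma adjusted p = 0.000281) and of -0.32 under median scaling, still called. Cox7a1 gave the widest error of the tested members, since LPS replicate 1 stood at 1.49 FPKM and the other LPS samples at 8.76 and 7.45 FPKM (-0.76 ± 0.46, adjusted p = 0.154).

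**Figure D4:**
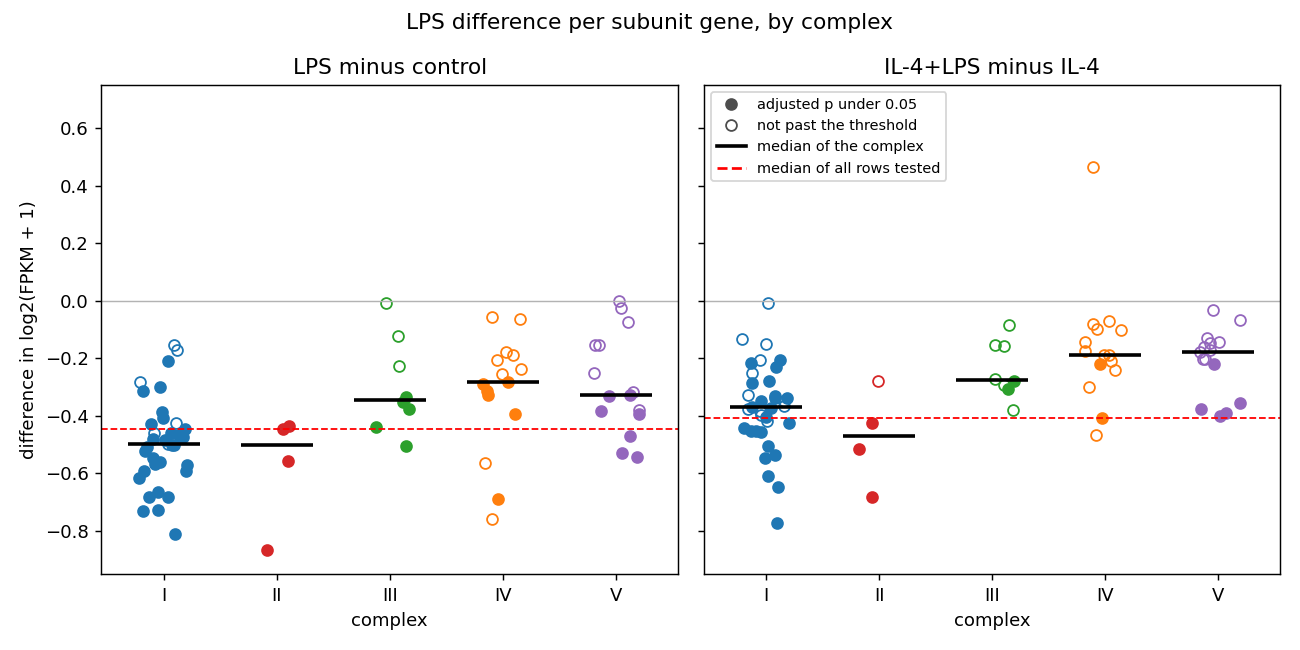
Difference in log2(FPKM + 1) for each tested subunit gene, by complex, for LPS minus control on the left and IL-4+LPS minus IL-4 on the right. Filled points passed the adjusted p threshold of 0.05, black bars are medians of a complex, and the red dashed line is the median of all rows tested (-0.44 and -0.41). Complexes I and II lie at or below the line on the left, and complexes III, IV and V lie mostly above it in both panels, an order against the line that turns under quantile normalization.

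In IL-4+LPS minus IL-4, 37 members were called lower and none higher, where 57.9% of rows were called lower and 15% higher, and the median of all rows was -0.41. The members' median was -0.29. Under median scaling 6 were lower and 6 higher, where 36.3% of rows were lower and 23.5% higher, and the medians were 0.07 over the members and -0.12 over all rows. With quantile normalization 58 were lower and 1 higher, where 37.3% of rows were lower and 22% higher, and the medians were -0.35 and -0.15. The members thus lay above the table under the first scaling and below it under the other. Sdhb measured 182, 173 and 179 FPKM in IL-4 and 115, 109 and 108 FPKM in IL-4+LPS, a difference of -0.68 ± 0.05 (limma adjusted p = 7.36e-07), and Ndufa6 fell by 0.77 on the log2 scale (adjusted p = 0.000398). Ndufs1 gave -0.61 ± 0.06 (adjusted p = 7.06e-06). These 3 genes stayed called lower under median scaling (-0.32, -0.41 and -0.26). Cox5a (0.28), Cox6b1 (0.29), Cox4i1 (0.26), Uqcrfs1 (0.28), Atp5h (0.21) and Cox6a2 (0.70) were called higher under that scaling, while none of them passed the test without it.

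The test of whether IL-4 changed the LPS difference, the interaction, called none of the 77 tested subunit genes with limma, where 4.58% of all rows were called positive and 4.63% negative. At an unadjusted p under 0.05 there were 4, where 2703 of the 11191 rows were. With replicates 2 and 3 alone, chosen after seeing the data, 12 were called positive, where 13.2% of rows were. With the replicate number as a block 7 were, where 10.2% of rows were. Of the 79 members 66 had a positive value, and the median was 0.12, beside 0.04 over all rows. The member median was 0.045 without IL-4+LPS replicate 2 and 0.053 without LPS replicate 1, beside 0.053 and 0.048 over all rows, and 0.20 without control replicate 1, beside 0.052. The 1 member called was Atp5sl, whose product is known as an assembly factor of complex I. It measured 7.19, 6.92 and 6.17 FPKM in control, 4.33, 4.17 and 4.85 FPKM in IL-4, 1.33, 1.78 and 1.70 FPKM in LPS, and 1.50, 2.04 and 2.33 FPKM in IL-4+LPS. The IL-4 difference was -0.51 ± 0.12 without LPS (adjusted p = 0.00688) and 0.18 ± 0.12 with it (adjusted p = 0.29), and the interaction was 0.69 ± 0.17 (adjusted p = 0.0286). Leaving out any of 7 samples raised that adjusted p above 0.05, to at most 0.0703, and over all 12 leave-outs the value ran from 0.60 to 0.81. Atp5s, which is also outside the standard subunits, gave -1.10 ± 0.15 for LPS minus control (adjusted p = 4.83e-05) from 2.21, 2.48 and 2.56 FPKM to 0.44, 0.746 and 0.589 FPKM.

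Promoters of 66 of the 84 members were found in RefSeq, as 250 bases before to 50 after the start, on GRCm38.p6. The 64 promoters of tested subunits were searched on both strands for the core letters of 5 factors, given here with the share of 8165 promoters of tested genes that held the same letters. NRF1, a known activator of respiratory chain genes, has the core CGCANGCG, which was in 37.5% of the subunit promoters and 18.9% of all. The short element AAGGTCA of estrogen-related receptors, which work with the coactivators Ppargc1a and Ppargc1b, was in 12.5% and 2.9%. The YY1 letters AANATGGC were in 23.4% and 9.8%, the ETS letters CCGGAAG in 23.4% and 20.5%, and the STAT6 letters TTCNNNNGAA in 6.2% and 5.5%. These shares describe letters in a window and not binding. Median IL-4 differences were alike with and without the NRF1 core, 0.46 over 24 genes and 0.48 over 40. They were 0.56 over 8 genes with the receptor element against 0.46 over 56 without it. For the YY1 letters they were 0.52 over 15 genes and 0.46 over 49, and for the ETS letters 0.49 over 15 and 0.46 over 49. For the STAT6 letters they were 0.53 over 4 genes and 0.46 over 60. A promoter can hold several of these letters, and the medians were not tested.

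In all, 4 promoter stretches are shown, 3 of genes that rose with IL-4 and that of Cox7a2l, which fell. Each runs from 120 bases before the start of transcription to 30 after it, 5′ to 3′ on the gene's own strand, with matches to the letters above in capitals. Atp5g3 (chr2:73911297-73911446, minus strand) holds the receptor element in reverse before the start and the NRF1 core after it. Atp5k (chr5:108434370-108434519, minus strand), a small membrane subunit of complex V that rose by 0.65 ± 0.15 after IL-4, holds the NRF1 core, the ETS letters and the receptor element in that order. Uqcr10 (chr11:4704315-4704464, minus strand) holds the NRF1 core, and Cox7a2l (chr17:83514304-83514453, minus strand) holds none of the 5. These 4 do not stand for all members. Over the whole window searched, Cox5a and Cox5b, called higher with IL-4, hold none of the 5 either. Ndufa6 and Atp5g2, not called with IL-4, hold the NRF1 core.
Atp5g3: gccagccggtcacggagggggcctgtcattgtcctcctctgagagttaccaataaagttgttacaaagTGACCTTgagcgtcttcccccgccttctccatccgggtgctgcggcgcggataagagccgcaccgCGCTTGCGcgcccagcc
Atp5k: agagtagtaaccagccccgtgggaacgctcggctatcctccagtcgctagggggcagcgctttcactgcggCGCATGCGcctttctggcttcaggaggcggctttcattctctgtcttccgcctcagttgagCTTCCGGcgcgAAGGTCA
Uqcr10: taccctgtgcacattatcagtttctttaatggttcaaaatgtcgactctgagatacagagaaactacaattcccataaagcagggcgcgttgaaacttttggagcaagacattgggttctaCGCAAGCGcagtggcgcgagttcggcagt
Cox7a2l: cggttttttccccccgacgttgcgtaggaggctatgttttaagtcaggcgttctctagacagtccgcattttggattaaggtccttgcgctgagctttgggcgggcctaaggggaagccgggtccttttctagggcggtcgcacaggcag

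Further proteins of the chain that the name pattern leaves out were taken as a list, of which 16 genes were tested. After IL-4, 10 rose and none fell, where 16.0% of all rows rose and 21.0% fell, with a median of 0.44. Cycs, the mobile electron carrier cytochrome c, measured 4.05, 4.78 and 5.34 FPKM in control and 9.82, 9.85 and 10.4 FPKM in IL-4. It differed from the subunits in that LPS raised it also, to 7.87, 8.63 and 9.24 FPKM, by 0.75 ± 0.09 (limma adjusted p = 3.17e-05). Etfa, which brings electrons from fatty acid oxidation, rose by 0.83 ± 0.08 with IL-4 (adjusted p = 2.33e-05), and Usmg5, a small ATP synthase component, by 0.97 ± 0.25 (adjusted p = 0.013). Slc25a5, an ADP/ATP carrier, was higher in IL-4+LPS than in LPS by 0.89 ± 0.09 (adjusted p = 3.21e-05).

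Entry points of electrons into ubiquinone went in opposite directions with LPS. Gpd2, the mitochondrial glycerol-3-phosphate dehydrogenase, measured 4.43, 5.31 and 5.16 FPKM in control and 47.8, 48.6 and 51.3 FPKM in LPS, 9.91-fold apart. After IL-4 it reached only 19.7, 24.8 and 26.2 FPKM with LPS, below every LPS sample, and the interaction was -0.79 ± 0.15 (limma adjusted p = 0.00852). Etfdh and Dhodh fell by 1.21 and 1.08 on the log2 scale with LPS (adjusted p = 2.67e-06 and 4.84e-05). The flavoprotein Aifm1, on the same list but not counted here as an entry point, fell by 1.00 (adjusted p = 3.44e-06). Etfdh, Dhodh and Aifm1 were each lower also relative to the table.

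Of 43 tested assembly factors, 14 rose and 1 fell after IL-4, with a median of 0.26, while 35 fell and 4 rose with LPS, with a median of -0.55. Of all rows, 16.0% were called higher and 21.0% lower after IL-4, and 16.9% higher and 57.7% lower with LPS, with a median of -0.44. Tmem126b, which builds an intermediate of complex I, measured 20.1, 16.3 and 17.2 FPKM in control, 37.6, 31.6 and 37.2 FPKM in IL-4, 2.82, 3.10 and 3.79 FPKM in LPS, and 10.5, 6.57 and 5.18 FPKM in IL-4+LPS. It rose by 0.95 ± 0.19 with IL-4 (limma adjusted p = 0.00343) and fell by 2.16 on the log2 scale with LPS (adjusted p = 2.94e-06). Surf1, which helps build complex IV, fell with IL-4 from 42.7, 36.3 and 39.8 FPKM to 23.7, 29.4 and 26.8 FPKM (-0.56 ± 0.12, adjusted p = 0.00463). Sdhaf1, which serves the iron-sulfur subunit of complex II, fell by 1.56 on the log2 scale with LPS (adjusted p = 1.4e-05). The complex IV factors Coa5 and Sco1 and the complex V factor Tmem70 rose with LPS by 0.66, 0.57 and 0.46 (adjusted p = 3.8e-06, 7.16e-05 and 0.00125).

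Among 18 tested regulators of mitochondrial genes, 5 rose and 3 fell after IL-4, which is 27.8% and 16.7%, beside 16.0% and 21.0% of all rows. In IL-4+LPS minus LPS none of the 18 was called higher and 3 were called lower, where 1682 and 1771 of the 11191 rows were. Ppargc1b, a coactivator of mitochondrial gene expression, measured 0.578, 0.613 and 0.49 FPKM in control and 2.86, 3.48 and 3.02 FPKM in IL-4, 5.57-fold apart, with a difference of 1.40 ± 0.14 (limma adjusted p = 3.24e-05). With LPS alone it stood at 1.91, 2.51 and 2.24 FPKM and after both at 1.22, 2.32 and 1.88 FPKM, where the groups overlapped. Its interaction was -1.61 ± 0.20 (adjusted p = 0.00084). Ppargc1a was listed at 0 in 11 of the samples and was not tested.

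Myc, a growth regulator, measured 6.75, 9.22 and 10.4 FPKM in control and 20.2, 26.3 and 25.1 FPKM in IL-4, and did not exceed 3.25 FPKM in any sample with LPS. Pparg measured 42.6, 43.5 and 41.5 FPKM in control and 101, 97.4 and 89.0 FPKM in IL-4, and did not exceed 15.4 FPKM with LPS. With LPS in both groups, the IL-4 difference of Ppargc1b, Myc and Pparg was not called (-0.22, 0.02 and -0.29, limma adjusted p = 0.279, 0.937 and 0.472). Whether these 3 genes have a part in the levels of the subunit genes was not tested. Polg, the mitochondrial DNA polymerase, fell with IL-4 by 0.62 on the log2 scale (adjusted p = 0.000303). Nrf1 measured 6.80, 7.08 and 7.49 FPKM in control and 5.95, 5.75 and 5.47 FPKM in IL-4 (-0.27 ± 0.08, adjusted p = 0.0258), a call lost without control replicate 2 (-0.28) or 3 (-0.24) or IL-4 replicate 2 (-0.28) or 3 (-0.25). In IL-4+LPS minus LPS, Nrf1 gave -0.43 ± 0.08 (limma adjusted p = 0.00294), and this call was kept in every leave-out. Polg and Yy1 gave -0.68 and -0.30 there (adjusted p = 0.00017 and 0.0413). The call of Yy1 was lost without any of 7 samples.

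**Figure D5:**
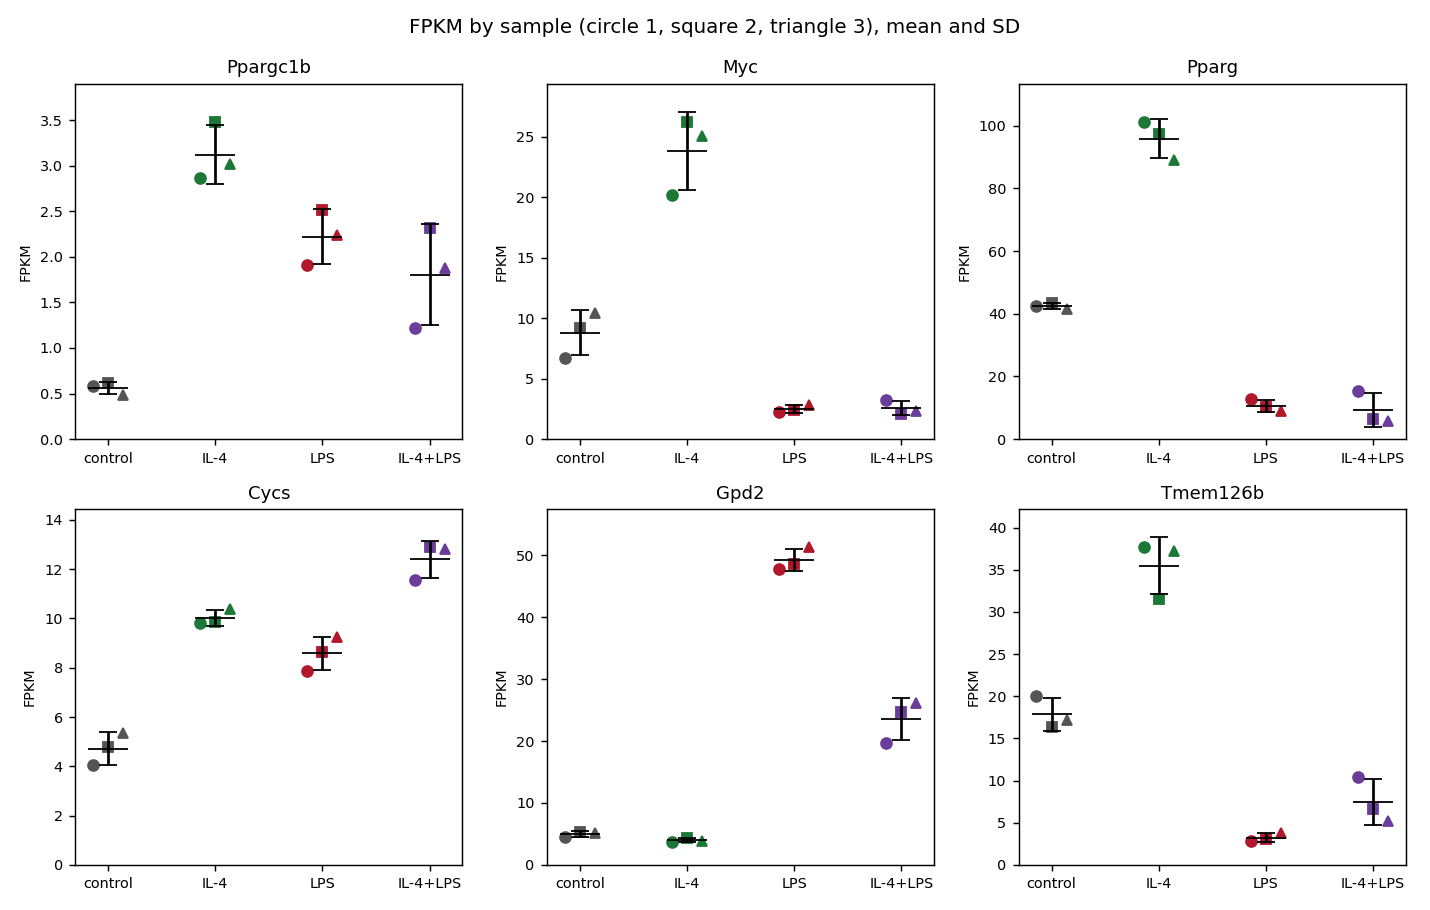
FPKM of 6 genes outside the subunits in each sample, by group. Circles, squares and triangles are replicates 1, 2 and 3, and bars give mean and SD of 3 samples. Ppargc1b, Myc and Pparg are raised by IL-4 without LPS and were not called with it, Cycs is raised by IL-4 and by LPS, Gpd2 rises to between 47.8 and 51.3 FPKM in LPS, and Tmem126b falls to between 2.82 and 3.79 FPKM in LPS.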

How the data were processed

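RNA from 12 BMDM samples in 4 groups was sequenced after poly-A selection. The deposited FPKM values were made by the authors, who aligned reads with TopHat2 2.0.7 and estimated transcript abundance with Cufflinks 2.0.2 on mm10; the annotation is not given in the sources used here. FPKM keeps no absolute depth, so no counting interval is given.

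Values were tested as log2(FPKM + 1), a scale that understates changes of low genes, with limma 3.58.1 in R 4.3.3. Rows needed at least 1 FPKM in 1 sample, which kept 11191 of 23847. Group means were fitted over all 12 samples, with p-values adjusted by Benjamini-Hochberg over all rows in each of 5 contrasts. The script was tested on simulated data. The members and lists were chosen with earlier results of these data known. Named genes were the 2 called members with the largest change per complex, direction and contrast, the catalytic and core subunits, the isoforms, and the 3 called genes with the largest change per direction and contrast from each other list. Other genes named for their calls under median scaling, and Ndufb11 and Atp5k, were chosen after their values were seen. The values of 1 gene are not reported here. Promoters came from RefSeq (GRCm38.p6). Shared 50-base words came from GENCODE vM21 transcripts. Exons of 29 of the 84 members overlap another gene there, and the part of this in their FPKM was not tested.

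Alternatives were a pseudocount of 0.1, no filter, a filter of 1 FPKM in 3 samples, quantile normalization, median scaling, a Tukey test per gene, a replicate block and leaving out each sample. Using replicates 2 and 3 alone was chosen after seeing the data.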

Additional observations from a re-analysis of the deposited data

Results flagged for a closer look

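For 6 genes the LPS difference changed with earlier IL-4, by the interaction test of limma over all rows (IL-4+LPS minus IL-4, less LPS minus control, on the log2 scale). They were 1 of 79 members, 1 of 16 further chain proteins, 1 of 43 assembly factors and 3 of 18 regulators. Of all rows tested, 4.58% were called positive and 4.63% negative. Gpd2 gave -0.79 ± 0.15 (adjusted p = 0.00852), with LPS differences of 3.08 without IL-4 and 2.29 after it. Ppargc1b gave -1.61 ± 0.20 (adjusted p = 0.00084), with 1.04 and -0.57. Myc gave -1.33 ± 0.24 (adjusted p = 0.00585), with -1.48 and -2.80. Each of these 3 was called without any of the 12 samples.

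Pparg gave -1.44 ± 0.39 (adjusted p = 0.0428), lost without any of 11 of the samples, with values from -1.84 to -1.21. Ndufaf1, a complex I assembly factor, gave -0.62, lost without control replicate 2 or 3, IL-4 replicate 3 or LPS replicate 2 or 3, with values from -0.72 to -0.49. Atp5sl gave 0.69 ± 0.17 (adjusted p = 0.0286), lost without any of 7 samples.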

How the results depend on the processing

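IL-4 calls moved little with scaling. Of 87 called IL-4 results for named genes, 83 kept call and direction under median scaling and quantile normalization, whereas 47 of 75 called LPS results did so under median scaling. Without 1 sample, members called higher ranged from 43 to 57 (IL-4 minus control, with 2 lower throughout) and from 50 to 70 (IL-4+LPS minus LPS, 0 to 1 lower). Of the 11191 rows, 1295 to 1925 and 1327 to 1761 were then called higher, and 1749 to 2583 and 1332 to 2064 lower. Members called lower ranged from 40 to 62 for LPS minus control (0 higher) and from 28 to 42 for IL-4+LPS minus IL-4 (0 to 1 higher). Members called positive in the interaction ranged from 0 to 2. Of all rows, 5990 to 6557 and 5950 to 6572 were then lower, and 311 to 624 were called positive in the interaction. With a pseudocount of 0.1 the interaction called 0 members, where 348 rows were called positive and 436 negative.

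Median scaling gave 4 higher and 13 lower for LPS minus control, and 6 higher and 6 lower for IL-4+LPS minus IL-4, where quantile normalization gave 1 higher and 58 lower. Under median scaling LPS minus control turned to 0.031 for Uqcrc2, 0.36 for Uqcrfs1, 0.081 for Cox4i1, 0.31 for Cox5a, 0.29 for Atp5a1, 0.081 for Cox7b and 0.057 for Cox8a. IL-4+LPS minus IL-4 turned to 0.057 for Uqcrq, 0.082 for Uqcrc2, 0.14 for Cox7b, 0.019 for Ndufv2, 0.004 for Ndufs3, 0.28 for Uqcrfs1, 0.26 for Cox4i1, 0.28 for Cox5a, 0.14 for Atp5o and 0.29 for Cox6b1. The log2 differences of the summed FPKM of complexes I to V became -0.14, -0.23, 0.035, 0.089 and 0.14 for LPS minus control, and -0.001, -0.12, 0.12, 0.22 and 0.20 for IL-4+LPS minus IL-4. Without median scaling, the sum of complex II gave -0.61 and -0.49 with Sdhb and -0.49 and -0.40 without it. The cause was not tested.

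Replicate numbers do not mark a shared animal in the sources used here, and over 18 same-numbered pairs the deviations correlated by 0.002 to 0.386, with 9 of 12 samples closest to their own number. With the replicate block, 65 members were higher and 2 lower in IL-4 minus control, where 2402 and 3183 of 11191 rows were. In IL-4+LPS minus LPS, 71 were higher and 1 lower, beside 2287 and 2667 rows. In LPS minus control, 66 were lower, beside 7013 rows. For IL-4+LPS minus IL-4, 1 was higher and 56 lower, beside 1927 and 7206 rows. The interaction called 8 positive, where 10.2% of rows were. With replicates 2 and 3 alone, IL-4+LPS minus LPS had 1 lower, beside 2901 rows. The interaction then called 13 positive, where 13.2% of rows were. FPKM without counts limits what can be said of low isoforms such as Cox6b2.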
